A study of Mus musculus with 3 samples.

Results

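The transcripts of 7 receptor genes were followed across the cell classes of mouse liver non-parenchymal cells and between the central and portal zones of the liver sinusoid. The genes are the vascular endothelial growth factor (VEGF) receptors Kdr, Flt1 and Flt4, the VEGF and semaphorin co-receptors Nrp1 and Nrp2, and the Tie receptors Tek and Tie1, of which Tek binds angiopoietins. They were chosen by name, and all 7 have a row among the 31053 genes of the deposited matrix. The cells came from mice of the Ai14 (LSL-Tomato) reporter strain, which carries a red fluorescent protein gene that Cre recombinase switches on. The control group received PBS, and the other groups received 20a-LNP or 20mix-LNP, lipid nanoparticles carrying Cre mRNA at 0.3 mg/kg. Livers were taken 3 h after injection, digested with enzymes and flow sorted, and 1 droplet library was made per treatment. Neither the number of mice pooled per library nor the sorted populations are stated in the labels. The barcodes of the libraries carry the suffixes 1, 2 and 3, and nothing in the labels or headers says which suffix is which treatment, so no treatment was compared with another.

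VEGF receptors are tyrosine kinases of the endothelial surface. Kdr is the main signalling receptor for VEGF-A, Flt1 binds VEGF-A tightly and signals weakly, and Flt4 is the receptor for VEGF-C and VEGF-D and is best known from lymphatic vessels. Neuropilins have short cytoplasmic tails and act with VEGF receptors or, together with plexins, as receptors for class 3 semaphorins. Tek is the angiopoietin receptor that keeps vessels quiescent and Tie1 is its partner in the same complex. The endothelium of the liver sinusoid is fenestrated and lacks an organised basement membrane, and it is patterned from the portal vein, where blood enters, to the central vein.

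The promoters of the 5 receptor kinases are shown. Those of Nrp1 and Nrp2, which were highest in the same cell class, were searched for motifs as well but are not printed. Each promoter covers 250 bases before and 50 bases after the gene's start in RefSeq (build GRCm38.p6), and all 7 genes matched an entry. The sequences are printed on the gene's strand from 5′ to 3′. Capitals mark GGAA, the core of sites for ETS factors, a family that includes regulators of endothelial genes, or TTCC where the core lies on the other strand.
Kdr, chr5:75978406-75978705, minus strand: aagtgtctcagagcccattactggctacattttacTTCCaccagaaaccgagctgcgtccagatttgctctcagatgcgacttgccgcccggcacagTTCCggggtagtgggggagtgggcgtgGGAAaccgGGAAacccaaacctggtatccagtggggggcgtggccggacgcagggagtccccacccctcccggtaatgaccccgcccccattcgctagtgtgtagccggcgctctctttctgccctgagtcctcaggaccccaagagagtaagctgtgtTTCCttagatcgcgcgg
Flt1, chr5:147725962-147726261, minus strand: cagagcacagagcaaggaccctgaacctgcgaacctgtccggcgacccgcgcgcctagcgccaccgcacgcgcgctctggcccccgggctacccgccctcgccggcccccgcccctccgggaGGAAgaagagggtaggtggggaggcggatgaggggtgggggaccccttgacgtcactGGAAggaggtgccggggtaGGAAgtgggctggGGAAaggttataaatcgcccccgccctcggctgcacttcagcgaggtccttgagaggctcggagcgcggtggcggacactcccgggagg
Flt4, chr11:49609429-49609728, plus strand: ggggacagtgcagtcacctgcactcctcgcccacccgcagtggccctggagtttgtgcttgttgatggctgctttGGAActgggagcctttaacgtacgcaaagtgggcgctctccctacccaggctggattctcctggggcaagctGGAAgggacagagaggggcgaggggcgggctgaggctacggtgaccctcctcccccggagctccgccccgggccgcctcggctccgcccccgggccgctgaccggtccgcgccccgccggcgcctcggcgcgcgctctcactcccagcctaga
Tek, chr4:94739039-94739338, plus strand: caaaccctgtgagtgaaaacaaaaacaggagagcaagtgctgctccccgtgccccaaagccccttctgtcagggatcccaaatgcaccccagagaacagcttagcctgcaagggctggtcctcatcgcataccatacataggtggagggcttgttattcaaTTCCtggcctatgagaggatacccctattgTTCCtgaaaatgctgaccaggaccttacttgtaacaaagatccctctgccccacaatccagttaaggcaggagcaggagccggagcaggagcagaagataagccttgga
Tie1, chr4:118489800-118490099, minus strand: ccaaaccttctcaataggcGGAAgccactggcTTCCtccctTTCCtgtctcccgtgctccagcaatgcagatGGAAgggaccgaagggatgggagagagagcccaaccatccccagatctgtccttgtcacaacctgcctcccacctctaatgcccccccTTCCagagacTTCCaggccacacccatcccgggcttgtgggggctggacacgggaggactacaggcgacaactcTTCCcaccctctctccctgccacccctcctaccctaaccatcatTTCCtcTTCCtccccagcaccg

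The core was found 9 times in the Tie1 promoter, 5 times each in those of Kdr and Nrp1, 4 times for Flt1, 2 times each for Flt4 and Tek and 1 time for Nrp2. Of 32851 RefSeq promoters of the same length, 96.0% held the core at least 1 time on either strand, with a median of 3 matches, and 1.59% held it 9 times or more. Its presence therefore did not set the receptor promoters apart from others, while the count in Tie1 was high. The longer form CCGGAAG, which contains the core and was present in 8.86% of promoters, was in none of the 7. The letters AGATAA, searched for GATA factors, were present 1 time in Tek and in 11.2% of promoters. The letters TATAAA, searched for the TATA box, were present 1 time in Flt1 and in 13.6% of promoters. All motifs were searched on both strands. The 7 promoters held 52.0% (Tek) to 70.7% (Flt1 and Nrp2) G and C, against a median of 52.7% over all promoters. A match is a description of the letters and not a binding site.

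By the GENCODE annotation (release M21, GRCm38), Kdr lies at chr5:75932827-75978458 on the minus strand and Flt1 at chr5:147561604-147726011 on the minus strand. Flt4 lies at chr11:49609263-49652739 on the plus strand, Nrp1 at chr8:128358604-128503363 on the plus strand and Nrp2 at chr1:62703285-62818695 on the plus strand. Tek at chr4:94739289-94874976 (plus) and Tie1 at chr4:118471191-118490061 (minus) share a chromosome. The counts are of the 3′ ends of transcripts from the whole gene and do not separate splice forms such as soluble Flt1.

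The matrix holds 24111183 unique molecular identifiers (UMIs, counts of captured transcript molecules) in 4638 barcodes, of which 3230 were kept (at least 200 genes and at most 20% mitochondrial UMIs), with a median of 5691 UMIs. A cell joined a class when it held at least 3 UMIs of that class's markers, over at least 2 markers, and at least 3 times the marker UMIs of every other class. No receptor gene was a marker. Of the kept cells, 2269 were gated and 961 were not, 434 of them because no gate outweighed the others. There were 866 sinusoidal endothelial cells, 354 plasmacytoid dendritic cells, 346 NK or ILC1 cells and 203 Kupffer cells. The other classes with at least 50 cells were 117 nonclassical monocytes, 115 T cells, 107 conventional dendritic 1 cells and 62 neutrophils. The sinusoidal endothelial cells numbered 212, 143 and 511 under suffixes 1, 2 and 3, so the library of suffix 3 weighs most in pooled values. Between suffixes, 3 barcode sequences were shared, in 6 kept barcodes, 1 of them a sinusoidal endothelial cell. As a check of the gate, 8 of 8 endothelial identity genes that were not markers (such as Pecam1, Erg and Egfl7) were highest in these cells, and the leukocyte gene Ptprc was at 18.7 CPM (UMIs of a gene per 1000000 UMIs of its class) there against 1542 CPM in NK or ILC1 cells. Levels are taken from UMIs summed over a class and are compared between classes for 1 gene, not between genes, since capture differs between transcripts. Intervals are 95% and cover counting error only, cells of a library are not replicates of a condition, and no p-value is given.

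Among the 8 classes with at least 50 cells, the 7 receptor transcripts were concentrated in sinusoidal endothelial cells. Kdr stood at 2990.0, 2524 and 3018 CPM under suffixes 1, 2 and 3, or 2929 CPM pooled (2882 to 2978). It was detected in 827 of 866 cells (95.5%) at a median depth of 5737 UMIs, against 9 of 346 NK or ILC1 cells (2.60%) at a median of 6223.5 UMIs, a class taken here as the level of free RNA. Suffix 2 was lowest and the other suffixes lay close together. Outside the endothelium, Kdr was at 29.8 CPM in plasmacytoid dendritic and 19.6 CPM in Kupffer cells, whose intervals overlapped, and at 3.87 to 7.78 CPM in the other 5 classes. The sinusoidal markers summed to 95.8 CPM in Kupffer and 19.0 CPM in NK or ILC1 cells, so the latter may understate free RNA in Kupffer cells. In the 154 Kupffer cells with no sinusoidal marker UMI, Kdr was at 10.9 CPM (6 UMIs). The part of free RNA in the receptor levels of Kupffer cells was not tested.

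Flt1, which can hold VEGF-A away from Kdr, was at 1449, 1284 and 1646 CPM under the 3 suffixes in sinusoidal endothelial cells, 1536 CPM pooled (1502 to 1571), with suffix 3 highest. It was detected in 91.3% of these cells and in 2.02% of NK or ILC1 cells. The next class in its order was nonclassical monocytes at 88.2 CPM (67.9 to 113), apart from all others, followed by conventional dendritic 1 cells at 14.2 CPM and Kupffer cells at 8.60 CPM, whose intervals overlapped. Of the 22 Flt1 UMIs in conventional dendritic 1 cells, 10 lay in 1 cell, and with a gate of at least 6 marker UMIs the level was 5.47 CPM, below the 8.66 CPM of Kupffer cells. Flt4 was at 1104, 1090.5 and 1138 CPM under the 3 suffixes, 1121 CPM pooled (1092 to 1151), and its suffixes differed least among the 3 VEGF receptors. No other class compared exceeded 6.14 CPM of Flt4 (Kupffer cells, 5 UMIs). In neutrophils and T cells it had 0 UMIs, with upper limits of 14.3 and 5.37 CPM.

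The co-receptor Nrp1 was at 1200.3, 1181 and 1274 CPM under the 3 suffixes in sinusoidal endothelial cells, 1240 CPM pooled (1209 to 1271). It was the member with the widest spread of classes above the level of NK or ILC1 cells (2.43 CPM). Plasmacytoid dendritic cells stood at 99.0 CPM, Kupffer cells at 47.9, conventional dendritic 1 cells at 34.2 and nonclassical monocytes at 23.4 CPM, and in that order only the first differed from its lower neighbour beyond the counting intervals. Nrp2, which prefers VEGF-C and semaphorin 3F, was at 652, 543 and 608 CPM under the 3 suffixes, 609 CPM pooled (587 to 631), then at 18.4 CPM in Kupffer cells and 9.64 CPM in nonclassical monocytes, whose intervals overlapped.

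Tek was at 411, 335 and 441 CPM under the 3 suffixes in sinusoidal endothelial cells, 416 CPM pooled (398 to 434). All 7 receptors were lowest under suffix 2 in these cells. Tie1 was at 512, 472 and 487 CPM under the 3 suffixes, 491 CPM pooled (471 to 511). Both genes had few UMIs in the other classes compared. They also had the fewest of the receptors in sinusoidal endothelial cells, 2044 for Tek and 2413 for Tie1. Few UMIs elsewhere therefore do not rank them as the most restricted. Over NK or ILC1 cells the ratio was 285 for Tek (97.4 to 1384) and 1010 for Tie1 (181 to 39903). Tek had at most 4 UMIs in any other class compared (Kupffer cells) and Tie1 at most 2 (Kupffer and plasmacytoid dendritic cells). Their share of positive sinusoidal endothelial cells was 73.8% and 80.3%, against 0.867% and 0.289% of NK or ILC1 cells.

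**Figure D1:**
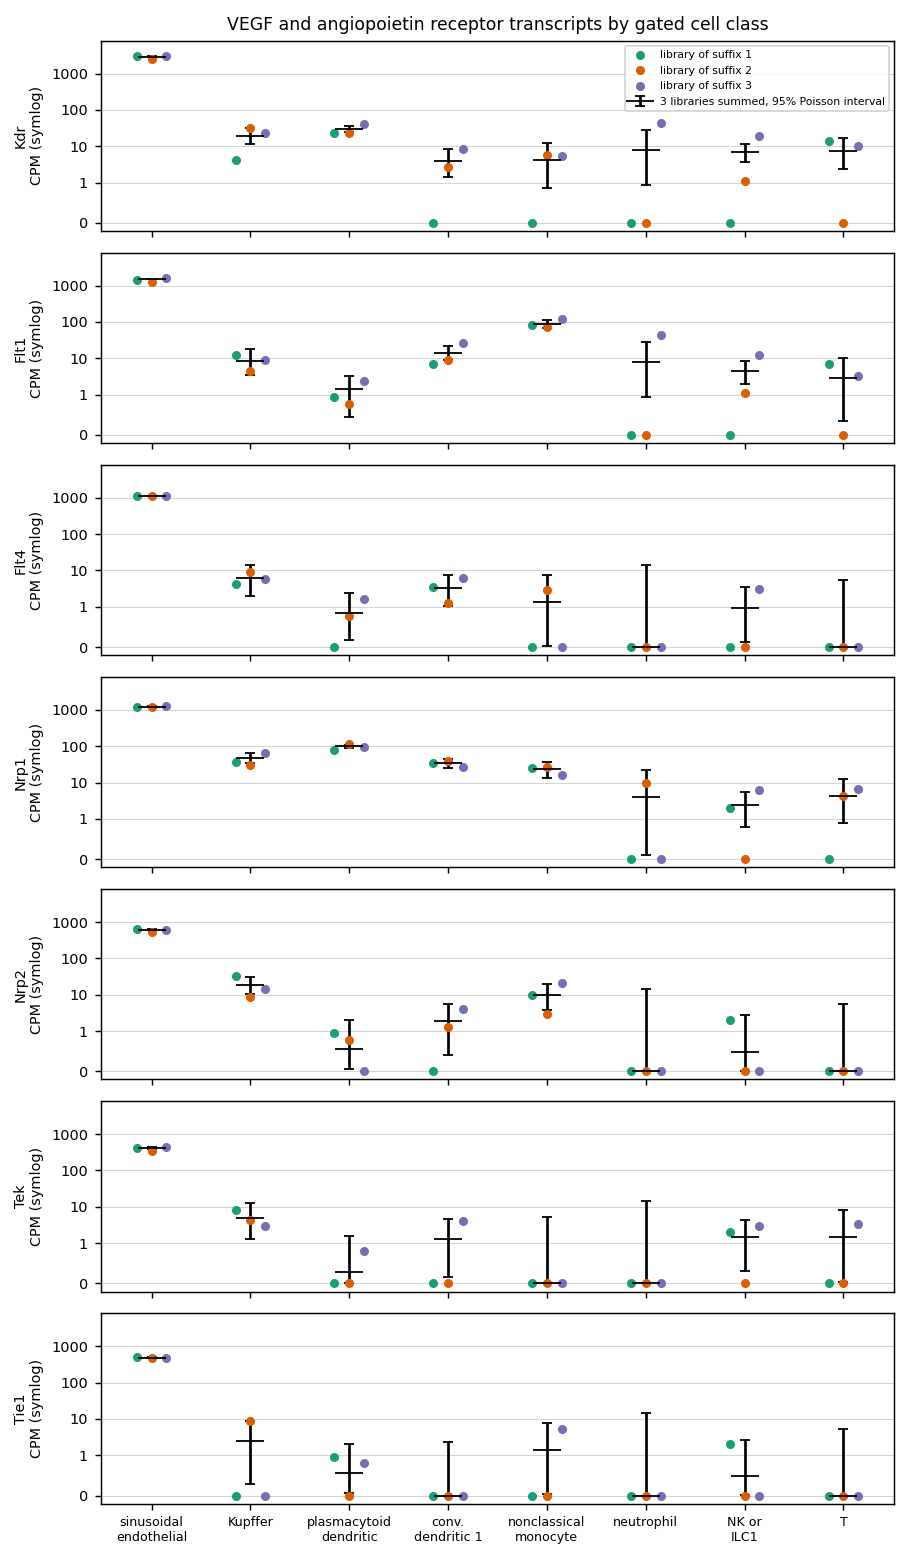
CPM of each receptor gene (y axis, linear below 1 and logarithmic above) in the 8 gated classes; dots are the libraries of suffixes 1, 2 and 3, and bars are the 3 libraries summed with a 95% Poisson interval. Sinusoidal endothelial cells stand above every other class shown for all 7 genes. Nrp1 is next highest in plasmacytoid dendritic cells (99.0 CPM) and Flt1 in nonclassical monocytes (88.2 CPM). Vascular endothelial cells, too few for the comparison, are not shown.

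Against Kupffer cells, the sinusoidal macrophages that share the vessel lumen, Kdr was 149-fold higher in sinusoidal endothelial cells (91.8 to 261), Flt1 179-fold (86.7 to 445) and Flt4 183-fold (78.2 to 563). The neuropilins had the smallest ratios, 25.9-fold for Nrp1 (18.9 to 36.4) and 33.0-fold for Nrp2 (20.0 to 59.1). Tek was 84.7-fold higher (33.0 to 311), and for Tie1, with 2 UMIs in Kupffer cells, the ratio of 199.9 had a counting interval of 55.3 to 1651 and was 117 without suffix 3. All 7 passed the rule of at least 4-fold with the same direction under each suffix, which 18.3% of the 8826 genes tested also passed. These ratios rest on few Kupffer UMIs, and with at most 10% mitochondrial UMIs Kdr was at 290.0 and Flt4 at 554. Over all genes the median ratio was 1.44, while the smallest of the members was 25.9. Against NK or ILC1 cells all 7 passed as well, with a background of 17.9% of 9389 genes, a ratio of 430-fold for Kdr (256 to 788) and 351-fold for Flt1 (185 to 768). Suffix 3 held 13 of the 14 Kdr and 8 of the 9 Flt1 UMIs of NK or ILC1 cells. Without it the ratios were 3917 for Kdr and 1932 for Flt1, and without suffix 2 they were 269 and 231. The gate for sinusoidal endothelial cells used other genes, and no receptor was part of it.

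Most sinusoidal endothelial cells carried several receptors at once. When each cell was thinned to 1000 UMIs, leaving out 58 shallower cells, the median cell had 4 of the 7 transcripts, 308 of 808 cells (38.1%) had 5 or more and 5 cells (0.619%) had none. Kdr was present in 89.5% of thinned cells, Flt1 in 72.8%, Nrp1 in 68.3%, Flt4 in 60.6%, Nrp2 in 42.7%, Tie1 in 37.5% and Tek in 32.7%. These shares follow the UMI counts and do not rank the genes by expression. At the same depth 336 of 345 NK or ILC1 cells (97.4%), 148 of 163 Kupffer cells (90.8%) and 300 of 354 plasmacytoid dendritic cells (84.7%) had none. The variance of thinned counts over their mean, which is 1 for pure counting error, was 1.46 for Kdr, 1.34 for Flt4 and 1.31 for Flt1 across sinusoidal endothelial cells. It was 1.13 for Nrp2, 1.06 for Nrp1 and Tek and 1.05 for Tie1, and on this measure the 3 VEGF receptors varied most between cells. The measure also grows with a gene's mean count, which differed between them.

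Sinusoidal endothelial cells were placed by zonal markers that include no receptor: Wnt2, Rspo3, Kit, Cdh13 and Thbd for central and Ltbp4, Efnb2, Dll4, Ntn4 and Adam23 for portal. A cell needed at least 3 UMIs of a zone and at least 2 times those of the other zone. This gave 88 central cells (16, 9 and 63 under suffixes 1, 2 and 3; median 6115.5 UMIs), 547 portal cells (144, 100 and 303; median 6135 UMIs) and 231 cells between (median 3355 UMIs). With 9 cells under suffix 2, the central values of that library are the least precise. A gene passed the zonal rule when it differed at least 1.5-fold in 1 direction with the same direction under each suffix.

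Flt1 was higher in central cells. It stood at 2033, 2061 and 2130.0 CPM in central cells and at 1349, 1213 and 1453 CPM in portal cells under the 3 suffixes, and the ranges did not overlap. Pooled, it was 2104 against 1381 CPM, a ratio of 1.52 (1.43 to 1.63), and 1.51, 1.70 and 1.47 under the 3 suffixes. Flt1 was the only member to pass the zonal rule, 1 of 7 higher against a background of 5.28% of 7771 genes higher and 7.53% lower, and the median ratio of all genes was 1.01. With 1 of 7, the receptors as a group did not stand apart from this background. A ratio as high as that of Flt1 was reached by 7.97% of genes, so the size of its difference was within the upper tail of the transcriptome and not beyond it. The call sits at the threshold: of 18 other settings the ratio was at least 1.5 in 10 and below it in 8, with a range of 1.29 to 1.58. A gate of at least 2 marker UMIs, 1 of the 10, kept the same zonal cells and so repeated the main zonal ratio of every member. The lowest Flt1 ratio came with TMM scaling of the class sums, which moved the median log2 ratio of all genes from 0.02 to -0.21. This scaling multiplies the ratios of all genes by the same factor, so the order of genes by ratio is the same under either.

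Tek, the angiopoietin receptor, was also higher in central cells without passing the rule. It stood at 559, 598 and 544 CPM in central and 399, 323 and 400.5 CPM in portal cells, ranges that did not overlap. The pooled ratio was 1.43 (1.26 to 1.63), reached by 11.1% of genes, with 1.40, 1.85 and 1.36 under the 3 suffixes, and it stayed above 1 in 18 of 18 other settings (1.20 to 1.70). Tie1 stood at 670.4, 678 and 542 CPM in central and 499.7, 458 and 466 CPM in portal cells, a pooled ratio of 1.23 (1.08 to 1.39), above 1 under each suffix. Its direction turned to 0.275 when only cells with no UMI of the other zone were used, a setting that left 11 central cells. With TMM scaling Tie1 was at 1.04.

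Flt4 lay the other way. It stood at 849, 665 and 1027 CPM in central cells and at 1182, 1151 and 1165 CPM in portal cells, with no overlap. The pooled ratio was 0.810 (0.736 to 0.889), with 0.718, 0.578 and 0.882 under the 3 suffixes, and it was below 1 in all 18 other settings. With each cell thinned to 1000 UMIs, a pair of random draws gave 0.977 and 0.674, and the expected value over all draws was 0.803. Flt4 did not pass the rule, and its ratio was past 1.5-fold in 3 of the 18 other settings.

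Kdr did not differ in 1 direction between zones. It stood at 3251, 3031 and 2849 CPM in central and 3002, 2462 and 3009 CPM in portal cells, ranges that overlapped. The ratio was 1.01 (0.958 to 1.07), above 1 under suffixes 1 and 2 and below it under suffix 3, and it became 0.859 with TMM scaling. Nrp1 was at 1240.2, 1117 and 1047 CPM in central and 1202, 1176 and 1339 CPM in portal cells, with overlap and a ratio of 0.857 (0.784 to 0.936) that was 0.993 without suffix 3. Nrp2 was at 480.4, 585 and 564 CPM in central and 657, 493 and 606 CPM in portal cells, with a ratio of 0.920 (0.810 to 1.04).

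**Figure D2:**
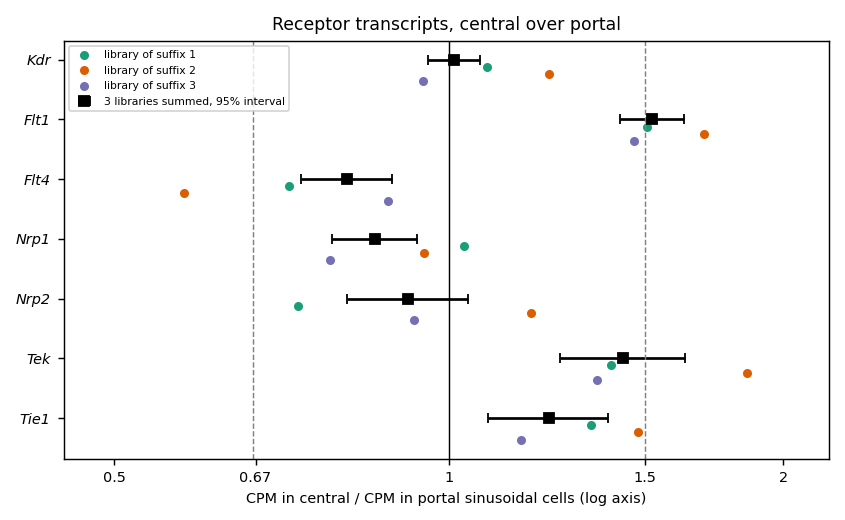
Ratio of CPM in central to CPM in portal sinusoidal endothelial cells (x axis, logarithmic) for each receptor gene; squares are the 3 libraries summed with a 95% interval, dots are the libraries, and dashed lines mark a 1.5-fold difference. Flt1 (1.52) and Tek (1.43) lie to the right with all 3 libraries, Flt4 (0.810) lies to the left with all 3, and Kdr, Nrp1 and Nrp2 have libraries on both sides of 1.

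A finer ordering used the central share of a cell's zonal UMIs in 780 of the 866 cells with at least 3 such UMIs, in 5 bins chosen after the values were seen. Pooled, Flt1 was at 1293, 1364, 1806, 2030.2 and 2072 CPM from the bin of 0% to that of 75 to 100% central share. The widest pooled step lay between the bins of 0 to 25% and 25 to 50%. By suffix, Flt1 was at 1176, 1250 and 1401 CPM in the bin of 0% and at 1625, 2461 and 2070 CPM in the most central bin, higher in the latter under all 3. The rise was not steady within the suffixes. Under suffix 1 the bin of 25 to 50% was highest, at 1922 CPM. Under suffix 2 the bin of 50 to 75% was the lowest, at 1017 CPM. Under suffix 3 the bin of 50 to 75% was highest, at 2249 CPM. Tek was at 367, 383, 435, 542 and 597 CPM over the same bins, and its most central bin was the highest under each suffix (746, 629 and 562 CPM). Pooled, Flt4 was flat at 1164, 1158 and 1161 CPM in the first 3 bins and lower at 1065 and 890 CPM in the last 2. By suffix the bin of 50 to 75% was at 602, 1291 and 1167 CPM, low under suffix 1 only. The last bin was at 878, 629 and 949 CPM by suffix, below the bin of 0% (1173, 1250 and 1110 CPM) under all 3. Kdr was lowest in the cells with no central UMI (2536 CPM), between 3081 and 3100 CPM in the middle 3 bins and 2788 CPM in the most central. The bin with no central UMI was the lowest for Kdr under each suffix (2535, 2398 and 2616 CPM). It also held the shallowest cells, with a median of 4679 UMIs against 6102.5 to 6848 UMIs in the other bins. The part of depth in its Kdr level was not tested. The last 2 bins held 73 and 58 cells, of which 8 and 6 came from the library of suffix 2.

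**Figure D3:**
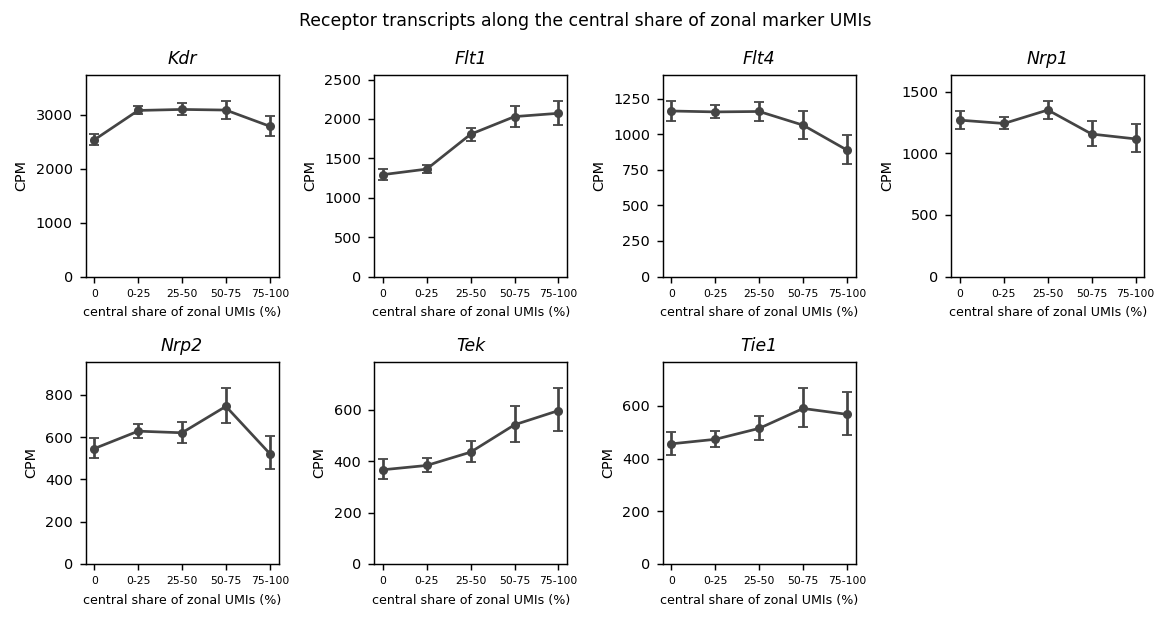
CPM of each receptor gene (y axes from 0, scaled per gene) in 5 bins of the central share of zonal marker UMIs (x axis, percent); points are pooled cells with 95% Poisson intervals. In these pooled values Flt1 and Tek are highest in the 2 most central bins, and Flt4 is lowest in the last bin (890 CPM). Kdr is lowest in the cells with no central UMI (2536 CPM). Single libraries depart from the pooled course of Flt1 and Flt4.

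Haemoglobin genes were at 4142 CPM in portal and 83.8 CPM in central cells, but 1 portal cell held 13708 of the 14060 portal haemoglobin UMIs, and without it the portal level was 104 CPM. Without that cell portal Flt1 was 1387 CPM and portal Flt4 1174 CPM. The 8 hepatocyte transcripts summed to 220.04 CPM in portal and 87.6 CPM in central cells, and their part in the receptor ratios was not tested.

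A few leukocyte classes carried UMIs of some of the receptors, and the mix differed by class. In NK or ILC1 cells, 40.0% of the 35 UMIs of the 7 genes were Kdr and 25.7% Flt1, and in sinusoidal endothelial cells 35.1% and 18.4% of 41008 UMIs. In plasmacytoid dendritic cells Nrp1 made up 74.7% of 475 UMIs, Kdr 22.5% and Flt1 1.05%. In nonclassical monocytes Flt1 made up 68.8% of 93 UMIs, Nrp1 18.3% and Kdr 3.23%. In Kupffer cells Nrp1 made up 44.3% of 88 UMIs, Kdr 18.2% and Nrp2 17.0%. Shares of UMIs depend on capture per transcript and are compared only between classes.

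**Figure D4:**
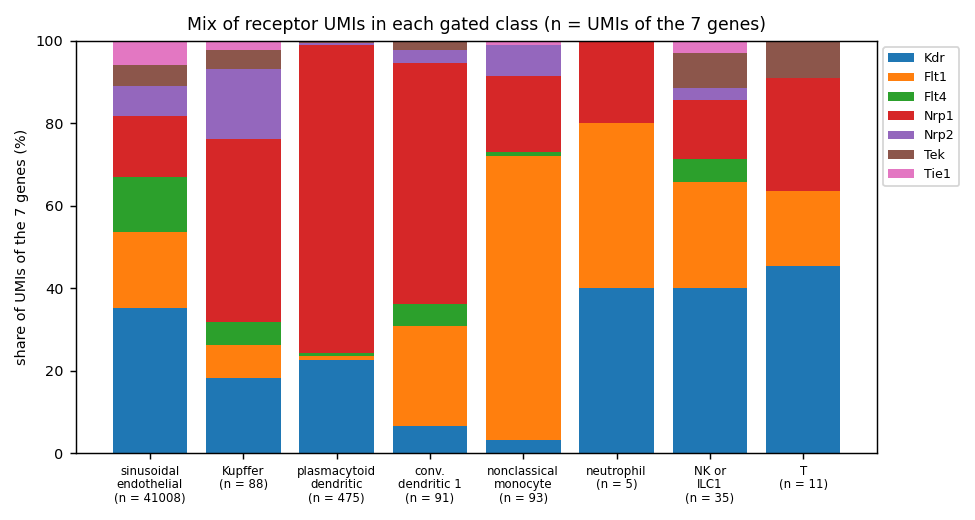
Share of the UMIs of the 7 receptor genes (y axis, percent) in each gated class, with the number of UMIs under each bar. Nrp1 fills 74.7% of the bar of plasmacytoid dendritic cells and Flt1 68.8% of that of nonclassical monocytes, while Kdr is the biggest part in sinusoidal endothelial cells (35.1%).

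Nrp1 in plasmacytoid dendritic cells stood at 78.2, 117 and 98.0 CPM under the 3 suffixes, against 1.99, 0 and 6.04 CPM in NK or ILC1 cells, with no overlap. The pooled ratio was 40.7 (17.3 to 126), and since it rests on 5 NK or ILC1 UMIs it was 20.7 without suffix 2 and 139 without suffix 3. It was detected in 202 of 354 cells (57.1%) at a median depth of 11319.5 UMIs, and in 12.1% against 0.580% of NK or ILC1 cells when both were thinned to 1000 UMIs. In the 266 cells without any UMI of a sinusoidal marker it was at 97.9 CPM. Kdr in the same class was at 22.9, 23.8 and 42.1 CPM, against 0, 1.12 and 19.6 CPM in NK or ILC1 cells. Suffix 3 was highest in both classes and held 13 of the 14 NK or ILC1 Kdr UMIs. The pooled ratio of 4.38 (2.50 to 8.29) was 32.6 without suffix 3. Kdr UMIs were unevenly spread, with 38 of 107 in 5 of the 51 positive cells, and 27 of these 51 cells also had Nrp1. Thinned to 1000 UMIs, 2.82% of plasmacytoid dendritic and 1.16% of NK or ILC1 cells had a Kdr UMI.

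Flt1 in nonclassical monocytes, which patrol the vessel wall, stood at 84.5, 73.7 and 118 CPM under the 3 suffixes, against 0, 1.12 and 12.1 CPM in NK or ILC1 cells, with no overlap and a pooled ratio of 20.2 (9.98 to 46.1), or 108 without suffix 3. It was detected in 38 of 117 cells (32.5%) at a median of 6043 UMIs, against 2.02% of NK or ILC1 cells at 6223.5 UMIs, and in 9.48% against 0.870% after thinning. In the 109 cells without a sinusoidal marker UMI it was at 91.8 CPM. Kdr in these monocytes had 3 UMIs and Tek 0. In the 11 classical monocytes gated, Flt1 and Nrp1 had 8 UMIs each and Nrp2 had 6.

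Nrp1 in Kupffer cells was at 37.1, 30.7 and 66.9 CPM, with a pooled ratio over NK or ILC1 cells of 19.7 (7.76 to 64.0), or 12.7 without suffix 2 and 47.5 without suffix 3, in 31 of 203 cells (15.3%, against 1.45% of NK or ILC1 cells). Of these 31 cells, 48.4% also held a sinusoidal marker UMI, against 19.8% of the Kupffer cells without Nrp1, and the 154 Kupffer cells with no such UMI stood at 34.5 CPM. The positive cells were also deeper, with a median of 8764 against 2516 UMIs. Since the sinusoidal markers summed to 95.8 CPM in Kupffer and 19.0 CPM in NK or ILC1 cells, free RNA may differ between these classes. Its part in the Nrp1 ratio was not tested. Nrp1 in conventional dendritic 1 cells was at 33.9, 38.9 and 26.9 CPM, a pooled ratio over NK or ILC1 cells of 14.1 (5.67 to 45.1), or 6.88 without suffix 2 and 52.4 without suffix 3. The 47 conventional dendritic 2 cells held 36 UMIs in 23 cells. The 7 vascular endothelial cells gated had UMIs of all 7 receptors, from 6 for Flt4 to 49 for Flt1. Tek was at 584 CPM in them (374 to 870), Tie1 at 511 (317 to 782), Flt1 at 1193 (883 to 1578) and Nrp2 at 390 (223 to 633). These intervals overlapped those of sinusoidal endothelial cells. Kdr at 682 CPM (453 to 985), Nrp1 at 463 (279 to 723) and Flt4 at 146 (53.6 to 318) lay below the sinusoidal intervals. With 7 cells, all of these levels are imprecise.

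The VEGF-family ligands were low in sinusoidal endothelial cells. None of the 5 VEGF-family ligands reached 50 CPM there. Vegfa was at 25.2 CPM in them and highest in neutrophils, at 264 CPM (68 UMIs). Between zones, 0 of 3 ligands tested passed upward in central cells and 1 of 3 downward. The latter was Vegfc, with 80 portal and 0 central UMIs, a central over portal ratio of 0 with an upper limit of 0.305. Angpt2, the context-dependent antagonist of Tek, was at 72.7, 105 and 41.3 CPM in sinusoidal endothelial cells and was the only angiopoietin above 50 CPM. Its 277 portal and 2 central UMIs gave a ratio of 0.0467 (0.00563 to 0.170), so its level and that of Tek lay on opposite sides between the zones. Esm1, a gene that VEGF induces in tip cells, was at 311, 417 and 131 CPM in sinusoidal endothelial cells, with 1063 portal and 0 central UMIs. Its central over portal ratio was 0 with an upper limit of 0.0225. Of the 3 tip cell genes tested between zones, Esm1 was the only gene that passed.

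Partners of the receptors in the membrane were mostly present. Of 10 receptor partners and phosphatases, 7 reached 50 CPM in sinusoidal endothelial cells and 7 passed against Kupffer cells, next to 18.3% of all genes. Ptprb, the phosphatase that holds Tek and Kdr signalling down, was at 5347, 4711 and 5447 CPM under the 3 suffixes, with a zonal ratio of 1.23 (1.19 to 1.28). Eng was at 1675 CPM, the junction cadherin Cdh5 at 891 CPM, the guidance receptor Robo4 at 517 CPM and the adhesion molecule Mcam at 253 CPM, and none of these 4 passed between zones. Cdh5 was also at 475 CPM in Kupffer cells and 151 CPM in plasmacytoid dendritic cells. Its ratio over Kupffer cells of 1.88 (1.69 to 2.09) did not pass. Ptprj, related to Ptprb, was at 459 CPM in Kupffer cells and 1.83 CPM in sinusoidal endothelial cells. Between zones 3 of 9 tested partners passed as higher in central cells and 0 as lower, against the backgrounds of 5.28% and 7.53%: Emcn, Gpc1 and Ephb4. Emcn, a sialomucin that takes part in Kdr uptake, was at 366 against 193 CPM, a ratio of 1.90 (1.61 to 2.23), and 2.2, 1.95 and 1.83 by suffix. Gpc1, a proteoglycan, was at 68.6 against 36.5 CPM, a ratio of 1.88 (1.26 to 2.74), and 1.43, 7.87 and 1.54 by suffix, with 7 central and 7 portal UMIs under suffix 2. Ephb4, a receptor of ephrin-B2, was at 421 against 267 CPM, a ratio of 1.58 (1.36 to 1.83), and 1.39, 2.0 and 1.53 by suffix. Ephrin-B2 is encoded by Efnb2, which was a portal marker here.

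For the neuropilins, 3 of 5 plexins reached 50 CPM, Plxnd1 at 573 CPM, Plxna2 at 262 CPM and Plxna4 at 93.4 CPM, and 0 of 4 tested passed between zones. Among 7 class 3 semaphorins only Sema3f, a ligand of Nrp2, reached 50 CPM. It was at 173, 130 and 197 CPM under the 3 suffixes and higher in central cells, 253 against 153 CPM (1.66, 1.36 to 2.01), 1.73, 1.82 and 1.58 under the 3 suffixes. Of 10 signal relay genes 6 reached 50 CPM, among them Foxo1, which Tek signalling keeps inactive, at 145 CPM, and Nos3, the endothelial nitric oxide synthase, at 94.8 CPM. The others were the adaptor Nck1 at 136 CPM, the kinase Akt1 at 130 CPM, the kinase subunit Pik3r1 at 119 CPM and the phospholipase Plcg1 at 82.0 CPM. Akt1 was highest in nonclassical monocytes (150.1 CPM) and Pik3r1 in Kupffer cells (305 CPM). Against Kupffer cells 4 of 9 relay genes tested passed as higher and 1 as lower, next to 18.3% of all genes higher. Against NK or ILC1 cells 3 of 10 passed as higher and 2 as lower, next to 17.9% higher. The latter 2 were Sh2d2a, at 1.22 CPM against 187 in NK or ILC1 cells, and Dok2, at 1.02 against 182 CPM. None of the 8 relay genes tested passed between zones. The 8 identity genes ranged from Erg at 51.5 CPM and Tal1 at 58.2 CPM to Pecam1 at 709 CPM and Egfl7 at 789 CPM, with Ramp2 at 618, Esam at 675 and Mmrn2 at 693 CPM between. Of these, Sox18 passed as lower in central cells, 147 against 282 CPM (0.520, 0.407 to 0.657), and 0.298, 0.383 and 0.675 by suffix.

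The genes whose levels followed each receptor most closely were taken by Pearson correlation of log2(CPM + 10) over 28 sums of class and suffix, among 8044 genes, as a description. These sums share libraries and the contrast of endothelium with leukocytes, which lifts all such values. For Kdr they were Clec4g (r = 0.989, itself a marker of the gate), Rasal2 and Rapgef3. For Flt1 they were Fzd4 (0.978), Tgfbr3 and Col4a2, and for Flt4 Bmp2 (0.998), Hspg2 and Cd59a. For Nrp1 they were Ptk2 (0.961), Lrrc58 and Mical3, and for Nrp2 Cald1 (0.987), Egfl7 and Arhgap29. For Tek they were Hspg2 (0.996), Btnl9 and C1qtnf1, and for Tie1 Nfib (0.997), Prickle1 and Clec14a. Among the receptors themselves the values ran from 0.871 (Flt1 with Nrp1) to 0.994 (Flt4 with Tie1).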

How the data were processed

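Droplet 3′ libraries (10x Genomics, version 3 chemistry, per the labels' protocols) of sorted liver non-parenchymal cells were used, 1 per treatment. The authors deposited raw UMI counts per gene and barcode. The matrix header names version 3.1.0 of the Cell Ranger software. The submitters' processing notes list mm10 as the build and, with neither version nor role, the tools STAR, Cell Ranger, edgeR and Seurat. The sample sheets name treatments but tie no barcode suffix to a treatment, so no treatment was compared and each library's value is given by its suffix.

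From the counts, barcodes with at least 200 genes and at most 20% mitochondrial UMIs were kept (3230 of 4638). Cells were gated by summed marker UMIs, and UMIs were summed per class and divided by the class total (CPM), so a few abundant genes can shift all levels of a class. Scrublet (in scanpy 1.11.5, Python 3.11.15) called 23 of 3230 kept barcodes and 7 of 866 sinusoidal endothelial cells as doublets. They were kept in the main values, and the gates also set aside cells with strong markers of more than 1 class. Intervals were exact: Poisson for levels, Clopper-Pearson for shares, and conditional on the total for ratios, at 95% (scipy 1.17.1). They cover counting error only. Genes with at least 50 UMIs in both groups together were counted against the fold rules, with zonal markers left out. TMM factors came from edgeR 4.0.16 (R 4.3.3), which ran no test. The calculation was tested on simulated data.

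The members and lists were chosen with earlier results of these data known. All 7 members are named. Of the pathway lists, genes at 50 CPM or more in sinusoidal endothelial cells were named, with the 3 most correlated genes per member. Vegfa, Vegfc, Ptprj, Gpc1, Sh2d2a and Dok2 lie outside that rule and were chosen after their values were seen. Alternatives were the gate size, the mitochondrial maximum, doublet removal, the denominator, TMM scaling, thinning to 1000 UMIs, each suffix left out, zone thresholds and markers, and the UMI minimum. Kept cells in no gate entered no comparison. Classes under 50 cells entered no ratio, and only the levels of vascular endothelial cells were set beside those of another class.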

Additional observations from a re-analysis of the deposited data

Results flagged for a closer look

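Barcodes removed for high mitochondrial content or few genes carried the receptor transcripts too. Of the 1408 removed barcodes, 231 passed the sinusoidal endothelial gate, with a median of 28.6% mitochondrial and 1702 total UMIs. They entered no comparison. The 7 receptor genes together stood at 7141 CPM of non-mitochondrial UMIs in them, where 3 UMIs would be 9.84 CPM. They stood at 9064 CPM in the kept sinusoidal endothelial cells, a ratio of removed to kept of 0.788 (0.754 to 0.823). The members did not differ by the same factor. Kdr was at 2149 against 3183 CPM (0.675, 0.624 to 0.730) and Tie1 at 345 against 533 CPM (0.646, 0.526 to 0.786). Nrp1 was at 1296 against 1347 CPM (0.962, 0.867 to 1.07) and Nrp2 at 699 against 661 CPM (1.06, 0.915 to 1.21). Which part of this goes with the state of the cells and which with their depth was not tested.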

How the results depend on the processing

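Of 126 central over portal ratios recomputed under other settings, 102 stayed inside the counting interval of the main value. Of all 126, 11 lay on the other side of 1: 8 for Kdr and 1 for Nrp2, whose main intervals hold 1, and 1 each for Nrp1 and Tie1. For sinusoidal endothelial over Kupffer cells 77 of 81 stayed inside, over NK or ILC1 cells 71 of 76, and for other classes over NK or ILC1 cells 55 of 60. Flt1 and Tek stayed above 1 and Flt4 below 1 in all 18 settings. For zonal ratios the gate of at least 2 marker UMIs could change nothing, since it left the same 88 central and 547 portal cells.

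TMM scaling of the class sums gave zonal ratios of 0.859 (Kdr), 1.29 (Flt1), 0.688 (Flt4), 0.728 (Nrp1), 0.781 (Nrp2), 1.22 (Tek) and 1.04 (Tie1), with 191 genes higher and 1138 lower in place of 410 and 585. TMM scaling of the central and portal sums alone, chosen after seeing the data, left all 7 inside their intervals. A random draw of 1000 UMIs per cell gave 1.42 (Flt1), 0.977 (Flt4), 0.750 (Nrp1), 1.20 (Tek) and 1.41 (Tie1), with 135 genes higher and 225 lower. It gave ratios to Kupffer cells of 80.3 (Flt1), 39.1 (Nrp1) and 19.0 (Nrp2), a ratio to NK or ILC1 cells of 170 (Flt1) and a ratio of nonclassical monocytes to NK or ILC1 cells of 9.91 (Flt1). These moves differ by draw. The draw behind the thinned shares gave zonal ratios of 1.5 (Flt1), 0.674 (Flt4), 0.810 (Nrp1), 1.36 (Tek) and 1.24 (Tie1), and ratios to Kupffer cells of 239 (Flt1), 24.4 (Nrp1) and 23.6 (Nrp2). The expected value over all draws, chosen after seeing the data, gave 1.56, 0.803, 0.831, 1.40 and 1.24 for the same zonal ratios, all inside their counting intervals, and moved Nrp1 over NK or ILC1 cells to 217. At most 10% mitochondrial UMIs gave 290.0 for Kdr and 554 for Flt4 over Kupffer cells, and left no Tek UMI in Kupffer cells. Zones of at least 6 UMIs and 4 times the other zone (36 central cells) gave 0.882 (Kdr), 0.654 (Flt4) and 1.70 (Tek). Zones of at least 2 UMIs and none of the other (11 central cells) gave 0.650 (Flt4), 1.07 (Nrp1), 1.53 (Nrp2) and 0.275 (Tie1), with 264 genes higher. Without Thbd among the markers Flt1 was 1.42. A minimum of 200 UMIs gave 136 genes higher and 191 lower, from fewer genes tested. For the other moves the cause was not tested.

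Leaving out each suffix in turn gave zonal ranges of 0.974 to 1.13 (Kdr), 0.654 to 0.847 (Flt4), 0.815 to 0.993 (Nrp1) and 1.19 to 1.39 (Tie1). In sinusoidal endothelial over NK or ILC1 cells the ranges were 269 to 3917 (Kdr), 231 to 1932 (Flt1) and 291 to 1664 (Nrp1). For other classes over NK or ILC1 cells they were 2.98 to 32.6 for Kdr and 20.7 to 139 for Nrp1 in plasmacytoid dendritic cells, 14.7 to 108 for Flt1 in nonclassical monocytes and 6.88 to 52.4 for Nrp1 in conventional dendritic 1 cells, each highest without suffix 3. No paired test was run, and no result comes from a test. Each treatment has 1 library. The ratios within each suffix compare classes of the same library and stand beside the pooled ones. With 88 central cells, 16 and 9 of them under suffixes 1 and 2, depth limits every zonal value of those libraries.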
